A study of Mus musculus with 6 samples.

Results

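The genes described here encode enzymes that add or remove acetyl and methyl groups on histones. They are the lysine demethylases (Kdm), the lysine methyltransferases named Kmt2, Kmt5 and Setd, the arginine methyltransferases (Prmt), the histone deacetylases (Hdac) and the lysine acetyltransferases (Kat). They were picked by name from the array's annotation, through probe sets with a single gene symbol, and Kdm1a, Hdac1 and Hdac2 were left out. This gave 150 probe sets of 58 genes in 7 families, out of 45037 probe sets and 18193 genes on the array. Of these, 124 probe sets had a mean log2 intensity of at least 4 over the 6 arrays and were tested, and each of the 58 genes had at least 1 of them. No measured value was used to pick the genes.

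The cells were mouse embryonic stem cells of a single line, labelled 27H or 27H10, that lack Dicer (Dicer -/-), the enzyme that cuts microRNAs out of their precursors. In 3 samples the cells had been transfected with synthetic mimics (Dharmacon) of the mmu-miR-290 cluster. In the other 3 they had received siRL, an siRNA against Renilla luciferase, a gene that mouse cells do not have. Every sample was taken 24 h after transfection from undifferentiated cells and read on 1 Affymetrix array, so the Dicer deletion is shared by both groups. The labels do not say whether replicates are separate cultures, so the spread behind each p-value may be technical.

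Histone tails carry marks that these enzymes write and erase. Acetylation by Kat enzymes loosens chromatin and is removed by Hdac enzymes, which work inside corepressor complexes. Methylation can mark active genes (H3K4, H3K36) or silent ones (H3K9, H3K27, H4K20), depending on the residue, and embryonic stem cells keep many developmental promoters under active and silent marks at once. MicroRNAs of the miR-290 cluster are abundant in such cells when Dicer is present, and they lower messenger RNAs that pair with their seed, bases 2 to 8.

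The mature sequences of the cluster are shown because the seed is what the mimics brought into the cells. They are from RefSeq, written 5′ to 3′ with the seed in capitals, and all lie on the plus strand of mouse chromosome 7 in the GRCm38.p6 assembly. The labels do not say which members or which arms the mimics covered. The 3p arms shown are these, and miR-292a-3p is not shown here.
mmu-miR-290a-3p, chr7:3218674-3218697: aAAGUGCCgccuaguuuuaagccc
mmu-miR-291a-3p, chr7:3218968-3218989: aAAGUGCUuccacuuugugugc
mmu-miR-291b-3p, chr7:3219529-3219550: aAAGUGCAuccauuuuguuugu
mmu-miR-293-3p, chr7:3220390-3220411: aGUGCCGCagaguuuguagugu
mmu-miR-294-3p, chr7:3220691-3220712: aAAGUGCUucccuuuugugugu
mmu-miR-295-3p, chr7:3220815-3220837: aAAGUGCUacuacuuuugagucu
The seeds of 5 of these 6 begin with AAGUGC, and 3 of them (miR-291a-3p, miR-294-3p and miR-295-3p) have the same seed, AAGUGCU. The miR-293-3p seed, GUGCCGC, is the exception. Among the 7 mature 5p arms of the cluster, CUCAAAC is the most frequent seed, in 3 of them. For comparison, miR-290a-5p has this sequence.
mmu-miR-290a-5p, chr7:3218639-3218660: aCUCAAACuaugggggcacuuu

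The arrays were alike in scale. Values are linear intensities, with a median per array between 41.7 and 44.9, and the arrays correlated at 0.963 to 0.969 within groups and at 0.959 to 0.964 between groups on the log2 scale over the tested probe sets. All 8 embryonic stem cell markers checked were bright, from 3995 (Esrrb) upward on every array, and 0 of the 8 passed the test (2 at an unadjusted p under 0.05; Esrrb and Utf1 were called higher with the prior described below). Their summed intensity was 110270 to 116080 with the mimics and 102989 to 112056 with the control siRNA. Of 10 markers of feeder fibroblasts, 5 were under the filter on level, among them Col1a1, Col1a2 and Col3a1, at no more than 32.2 on any array. The summed fibroblast markers were lower on each mimic array, 424 to 534 against 559 to 576 with the control siRNA. Of the 5 tested, 0 passed, and S100a4 alone was called with that prior, lower. At an unadjusted p under 0.05, Dcn (−0.90) and S100a4 (−1.29) were lower and Pdgfrb (0.43) was higher, and Thy1 was at 0.10. Their part in the results was not tested.

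Most of these genes stayed close to their control level, and 3 of the 58 fell on 1 of their probe sets: the deacetylase gene Hdac4, the methyltransferase-like gene Kmt2e and the methyltransferase gene Setd7. Log2 fold changes are mimics minus control siRNA throughout. At a Benjamini-Hochberg adjusted p under 0.05 over all 29167 tested probe sets in limma, 3 of the 124 member probe sets were lower and 0 were higher. Of all tested probe sets 1.29% were called in either direction, 0.946% lower and 0.343% higher. The member share, 2.42%, is above these but rests on 3 calls, and the difference was not tested. Counted by gene through the brightest probe set of each, 1 of 58 (Setd7) was called, as lower. Of all 13815 genes 1.83% were called, 1.38% lower. At an unadjusted p under 0.05 there were 12 lower and 11 higher member probe sets, 18.5% of the members. Of all tested probe sets 20.1% had such a p, 11.6% lower and 8.49% higher.

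**Figure D1:**
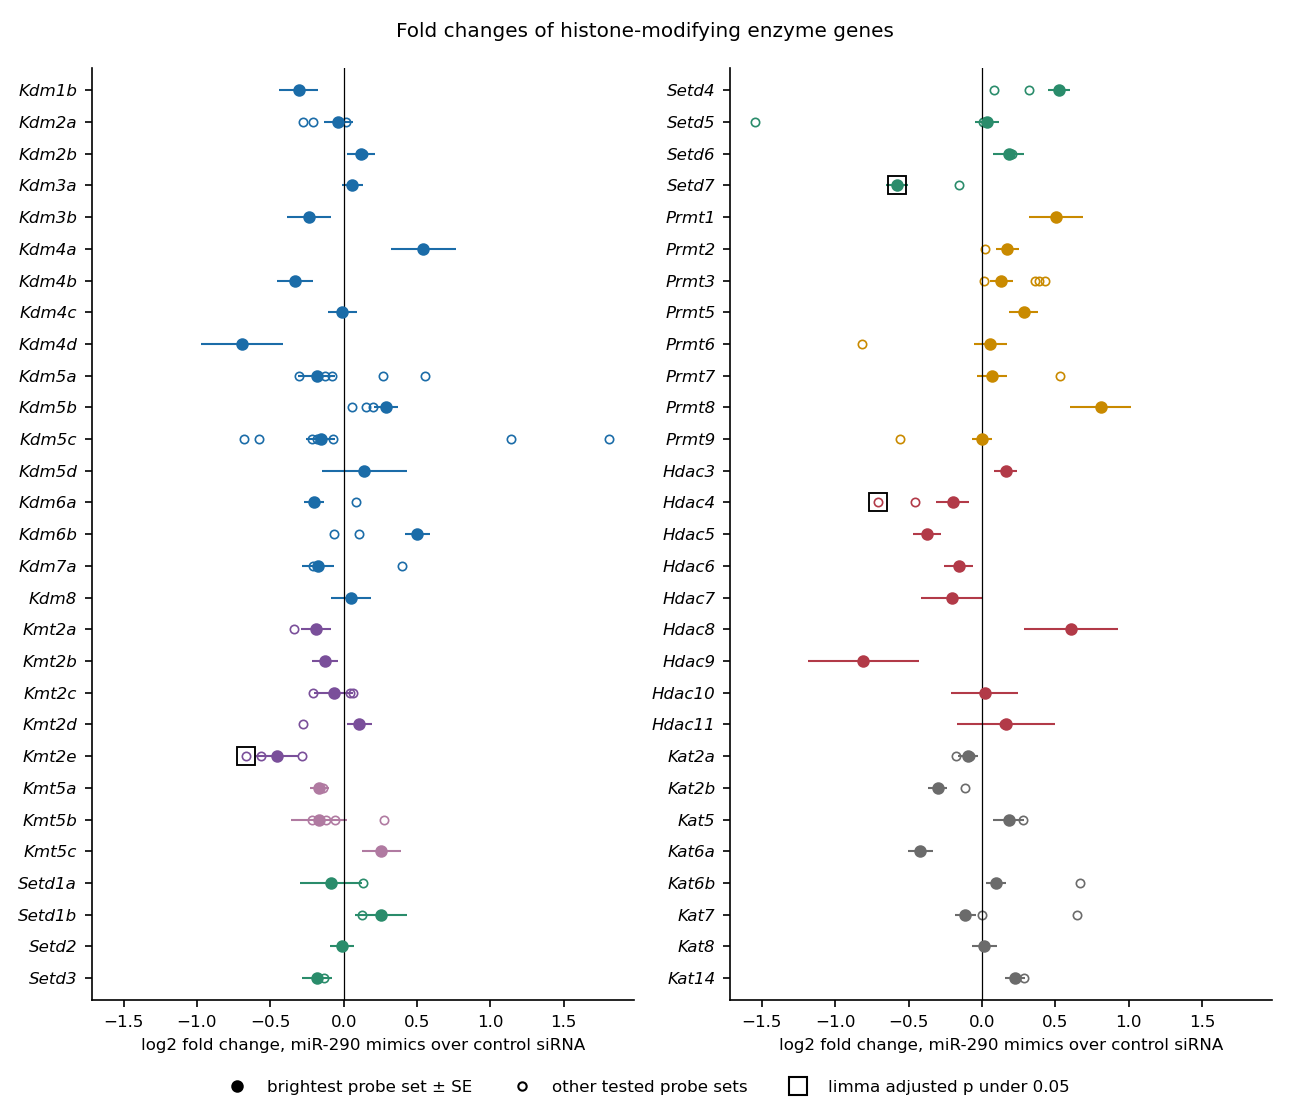
Log2 fold change (x axis, mimics over control siRNA, log2 units) of every tested probe set of the 58 genes, 1 row per gene, coloured by family. Filled points are the brightest probe set of a gene with its SE, open points are its other tested probe sets, and squares mark the 3 probe sets with a limma adjusted p under 0.05, of Kmt2e, Setd7 and Hdac4, all to the left of 0.

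The fold changes of the group were centred on 0. The median of the 124 probe sets was −0.01 on the log2 scale, with quartiles of −0.20 and 0.17, and the median of all tested probe sets was −0.01 too, with quartiles of −0.24 and 0.20. A total of 63 were below 0 and 61 above it. A change of 2-fold or more was seen in 3 of the member probe sets (2.42%), against 5.77% of all tested ones; these 3, 2 of Kdm5c and 1 of Setd5, were dim and did not pass. The members were also brighter than the array as a whole, with a median log2 level of 8.41 against 7.46. In 35 member probe sets (28.2%) the 3 mimic values lay entirely to one side of the 3 control values, 16 lower and 19 higher, while 29.2% of all tested probe sets did so, 15.5% lower and 13.8% higher.

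A second fit gives a wider view of the same arrays. It lets the prior variance follow the signal level with robust estimation (the level-dependent robust prior). It called 13 member probe sets of 11 genes, 8 lower and 5 higher, 10.5% of the members, where 11.3% of all tested probe sets were called, 6.56% lower and 4.73% higher. The 6 genes with lower probe sets were Hdac4, Hdac5, Kmt2e, Setd7, Kat2b and Kat6a, and their fold differences ran from 1.23 to 1.64. Those with higher ones were Kdm5b, Kdm6b, Setd4, Prmt5 and Prmt8, from 1.22-fold to 1.75-fold. These calls are of an alternative fit and are named as such below.

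Among the writers of lysine methylation, Kmt2e was lower on each of its 4 tested probe sets, and 1 of them passed. Kmt2e (also called Mll5) carries a PHD finger that reads H3K4me3 and a SET domain that differs from those of the active Kmt2 enzymes. Its called probe set, 1439108_at, gave 484, 495 and 463 with the mimics and 830.4, 747 and 714 with the control siRNA. All 3 mimic values lay below the lowest control value. The fall was 1.59-fold (log2 fold change −0.67 ± 0.09 SE, limma adjusted p = 0.0457, n = 3 each).

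The other 3 tested Kmt2e probe sets were lower as well without passing. The brightest, 1434704_at, gave 948, 696 and 852 with the mimics and 1239, 1062 and 1094 with the control siRNA, which do not overlap (−0.45 ± 0.14 SE, limma adjusted p = 0.173). Another, 1439107_a_at, gave 193, 230 and 205 with the mimics and a tight 309, 308 and 310.2 with the control siRNA (−0.56 ± 0.09 SE, limma adjusted p = 0.0601). The last was at −0.28, with groups that overlapped. With the level-dependent robust prior 3 of these 4 were called lower. Without 1 array the highest adjusted p was 0.00727 for 1439108_at, whereas 1434704_at lost the call without control replicate 1, control replicate 3 or mimic replicate 2 (up to 0.093) and 1439107_a_at without control replicate 3 or mimic replicate 1 (up to 0.0586). The mean over the tested Kmt2e probe sets, tested by gene, was lower by 0.49 on the log2 scale (limma adjusted p = 0.0414).

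Setd7 encodes an enzyme that monomethylates H3K4 and several other proteins. Its brightest probe set, 1435437_at, gave 343, 309 and 324 with the mimics and 474, 480 and 504 with the control siRNA. The groups were well apart, with spreads of 17.2 and 15.96 around means of 326 and 486 (SD, n = 3 each). This was a 1.49-fold fall (log2 fold change −0.58 ± 0.08 SE, limma adjusted p = 0.0457). On the dimmer 1423003_at the values were 100, 120 and 87.7 with the mimics and 120, 107 and 112 with the control siRNA, so these groups overlapped (−0.16 ± 0.14 SE, limma adjusted p = 0.571).

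Hdac4 is a class IIa deacetylase, which shuttles between nucleus and cytoplasm and binds Mef2 transcription factors. Its called probe set, 1454693_at, gave 175, 163 and 177 with the mimics and 289, 298 and 257 with the control siRNA. The highest mimic value was well under the lowest control value, and the fall was 1.64-fold (log2 fold change −0.71 ± 0.09 SE, limma adjusted p = 0.0448, n = 3 each). A slightly brighter Hdac4 probe set, 1436758_at, gave 239, 230 and 194 with the mimics and 240.2, 247 and 272 with the control siRNA. It was also lower on each mimic array, but by a small margin (−0.20 ± 0.11 SE, limma adjusted p = 0.393). The third, 1447566_at, scattered from 20.7 to 94.9 among the mimic arrays and did not pass (−0.46 ± 0.57 SE, limma adjusted p = 0.697). The Hdac4 fall therefore rests on 1 of 3 probe sets.

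**Figure D2:**
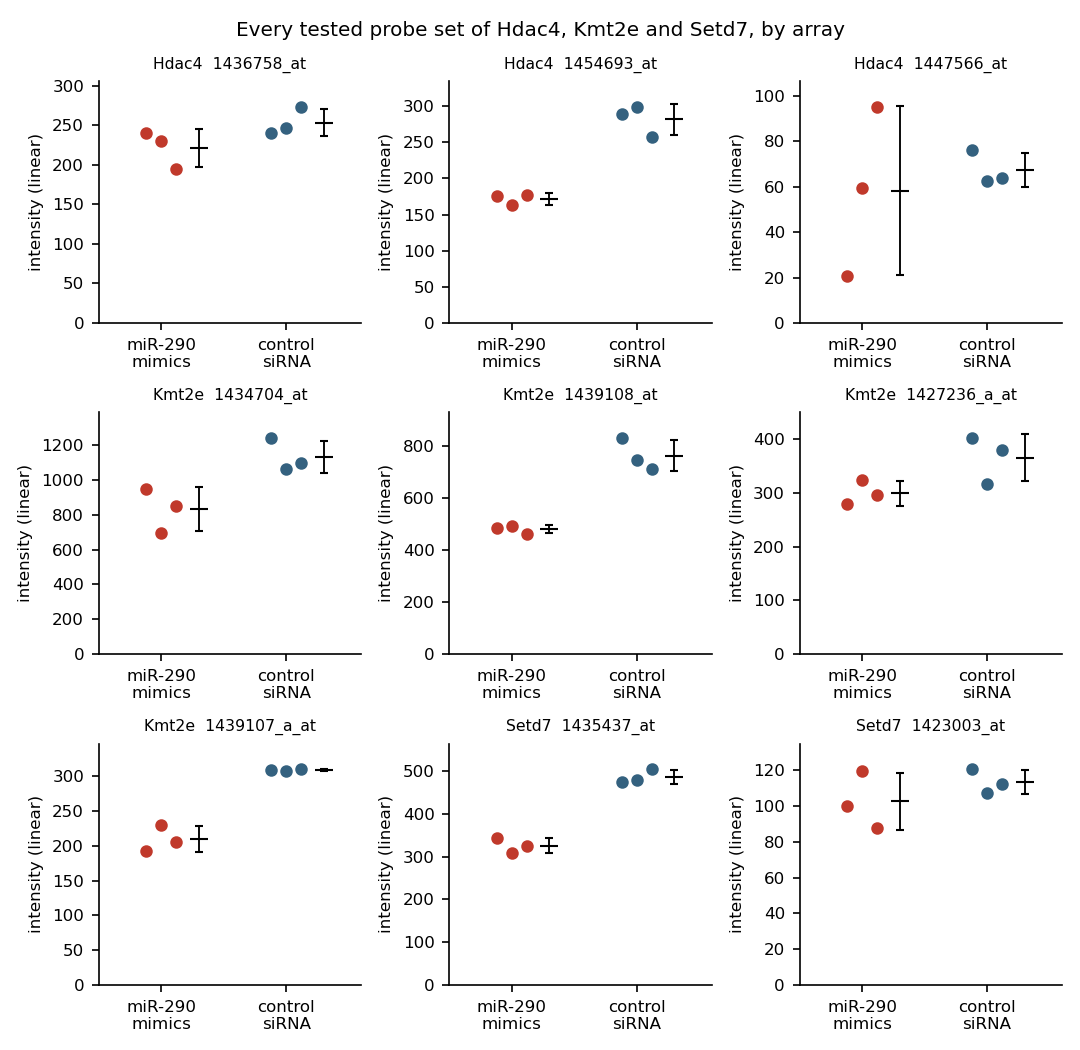
Linear intensity (y axis, starting at 0) on each array for every tested probe set of Hdac4, Kmt2e and Setd7, mimics in red and control siRNA in blue. Points are arrays in replicate order, and bars are the group mean with its SD (n = 3). The groups are apart in 6 panels, most narrowly in the first Hdac4 panel, and overlap in the third Hdac4 panel, the third Kmt2e panel and the second Setd7 panel.

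The 3 calls stood close to the threshold, at adjusted p-values of 0.0448 to 0.0457, and their sizes moved little. Leaving out 1 array at a time, the log2 fold change stayed between −0.71 and −0.61 for Kmt2e, −0.62 and −0.54 for Setd7 and −0.78 and −0.67 for Hdac4, but 0 of these calls remained without any 1 of the 6 arrays (limma adjusted p 0.135 to 0.153). They also ended with no filter on level, with median centring (limma adjusted p 0.0596 to 0.0642) and with quantile normalization (0.0525 to 0.0594). With the level-dependent robust prior the 3 probe sets passed on all arrays (limma adjusted p 0.00093 to 0.006) and without each array in turn (0.003 to 0.0284).

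The active H3K4 methyltransferases gave no call. Kmt2a, Kmt2b, Kmt2c and Kmt2d are the catalytic subunits of MLL complexes, and Setd1a and Setd1b those of the SET1 complexes. Of their 13 tested probe sets 0 passed, with either prior, and 7 were below 0 and 6 above it. The brightest probe set of Kmt2b gave 1367, 1247 and 1192 with the mimics and 1316, 1379 and 1465 with the control siRNA, which overlap (−0.13, limma adjusted p = 0.477). Kmt2a was at −0.19, Kmt2c at −0.07, Kmt2d at 0.11, Setd1a at −0.09 and Setd1b at 0.26. A dimmer Kmt2a probe set, at −0.34, was the only 1 of the 13 whose groups did not overlap, against 29.2% of all tested probe sets.

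The H4K20 methyltransferases and the remaining Setd genes also varied little. Kmt5a, which deposits H4K20me1, gave 1335, 1341 and 1332 with the mimics and 1474, 1526 and 1500 with the control siRNA. Those groups were clearly apart, but the fold change was small and did not pass (−0.17 ± 0.06 SE, limma adjusted p = 0.237). Kmt5b and Kmt5c, which extend the mark to its higher methylated forms, were at −0.17 and 0.26. Setd2, the enzyme for H3K36me3, was at −0.01, Setd3, an actin histidine methyltransferase, at −0.18, Setd5 at 0.04 and Setd6, which methylates the NF-kappaB subunit RelA, at 0.18, and 0 of these passed (limma adjusted p 0.233 to 0.958 with the level-dependent robust prior).

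Setd4, a SET domain gene, was the member nearest to a call in the upward direction. It gave 492, 506 and 508 with the mimics and 327, 360.2 and 358 with the control siRNA. Every mimic value was above the highest control value (0.53 ± 0.07 SE, limma adjusted p = 0.0519). It passed as higher with the level-dependent robust prior (limma adjusted p = 0.00575), also without each array in turn (up to 0.0259), with quantile normalization (0.0463) and with an offset of 16 added before log2 (0.043). A second Setd4 probe set of about the same brightness gave 384, 455 and 369 with the mimics and 414, 318 and 413 with the control siRNA. Its groups overlapped (0.08, limma adjusted p = 0.797), so these 2 probe sets disagree in size. The third tested Setd4 probe set was also above 0 and did not pass. Without 1 array at a time it ran from 0.06 to 0.46.

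Erasers of lysine methylation formed the largest family, with 17 genes and 42 tested probe sets, of which 0 passed in limma (5 had groups apart upward and 3 downward, where 13.8% and 15.5% of all tested probe sets did). Their brightest probe sets were below 0 for 10 genes and above 0 for 7, with a median of −0.04. Kdm6b (Jmjd3), which removes H3K27me3, gave 961, 856 and 852 with the mimics and 632, 650.5 and 601 with the control siRNA. The groups were clearly apart (0.50 ± 0.08 SE, limma adjusted p = 0.0656), and the level-dependent robust prior called it higher (limma adjusted p = 0.00322, and up to 0.0212 without 1 array). The other Kdm6b probe sets with that symbol alone did not follow, at −0.07 and 0.10. Its X-linked relative Kdm6a acts on the same mark. The brightest Kdm6a probe set gave 662, 658 and 664 with the mimics and 782, 780 and 723 with the control siRNA. Those groups were apart in the opposite direction and did not pass (−0.20, limma adjusted p = 0.206). A second tested Kdm6a probe set was at 0.08, with groups that overlapped.

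The Kdm5 enzymes remove H3K4me3 and H3K4me2. Kdm5b, prominent in embryonic stem cells, gave 5954, 6087 and 5818 with the mimics and 5121, 5017 and 4496 with the control siRNA. These did not overlap (0.29 ± 0.08 SE, limma adjusted p = 0.146), and the level-dependent robust prior called it higher (limma adjusted p = 0.00798, and up to 0.035 without 1 array). Its other 3 tested probe sets lay between 0.06 and 0.20 and did not pass. Kdm5a was at −0.18 and Kdm5c at −0.16 on their brightest probe sets, and the Y-linked Kdm5d, dim at 42.8 to 63.4 with the mimics and 32.5 to 63.1 with the control siRNA, was at 0.14. The 6 tested Kdm5a probe sets ran from −0.31 to 0.55, and the highest of them was dim, with groups apart upward (limma adjusted p = 0.236). The 8 tested Kdm5c probe sets ran from −0.68 to 1.81. The 2 highest of them were dim, averaging 33.1 and 47.1 with the mimics and 11.7 and 21.5 with the control siRNA. The second of these, at 1.14, had groups apart upward and did not pass (limma adjusted p = 0.0868).

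Demethylases of H3K9 and H3K36 gave no call. Kdm3a and Kdm3b, which remove H3K9me2, were at 0.06 and −0.24, and the bright Kdm3a gave 7455, 7623 and 7213 with the mimics and 6869, 7448 and 7098 with the control siRNA, which overlap. In the Kdm4 set, which acts on H3K9me3 and, for some members only, H3K36me3, Kdm4a was at 0.54, Kdm4b at −0.33, Kdm4c at −0.01 and Kdm4d at −0.69. Kdm4d, the largest of these, was dim, at 18.3, 9.40 and 15.8 with the mimics and 21.7, 26.5 and 19.96 with the control siRNA (limma adjusted p = 0.26), and with the offset of 16 the value came to −0.35. Kdm2b, which brings a Polycomb complex to CpG islands, was bright on both of its probe sets and at 0.12 and 0.13, whereas Kdm2a was at −0.04, Kdm7a at −0.18, Kdm8 at 0.05 and the H3K4 demethylase Kdm1b at −0.31.

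Among 9 histone deacetylase genes, Hdac4 alone had a called probe set, 1 of the 12 tested in the family. The class IIa genes Hdac4, Hdac5, Hdac7 and Hdac9 were below 0 on each of their 6 tested probe sets, with a median of −0.42, while all tested probe sets had a median of −0.01. Without mimic replicate 1 or mimic replicate 3, 5 of the 6 were below 0. Hdac5 gave 595, 583 and 513 with the mimics and 732, 692 and 765 with the control siRNA. Its groups were apart (−0.37 ± 0.09 SE, limma adjusted p = 0.116), and the level-dependent robust prior called it lower (limma adjusted p = 0.0229), a call that ended without control replicate 1, control replicate 3 or mimic replicate 3 (up to 0.0897). Hdac7 was at −0.21, and Hdac9 at −0.81 with intensities of 9.64 to 25.6 with the mimics and 22.8 to 31.5 with the control siRNA, which overlap.

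The other deacetylases did not pass with either prior. Hdac3, the class I catalytic subunit of the NCoR and SMRT corepressors, gave 678, 746 and 659 with the mimics and 636, 602 and 622 with the control siRNA, higher on each mimic array by a small step (0.16, limma adjusted p = 0.347). Hdac8 was at 0.61 with a wide spread, the tubulin deacetylase gene Hdac6 at −0.16, Hdac10 at 0.02 and the class IV gene Hdac11 at 0.16. The family's genes outside the naming rule lay in the same range. Hdac1 averaged 3746 ± 524 with the mimics and 3327 ± 304 with the control siRNA, and Hdac2 3646 ± 232 with the mimics and 3925 ± 60.0 with the control siRNA (SD, n = 3 each; limma adjusted p = 0.544 and 0.498). For comparison, Kdm1a averaged 6264 ± 274 with the mimics and 6436 ± 158 with the control siRNA (limma adjusted p = 0.798).

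Acetyltransferase genes numbered 8, and 0 of their 16 tested probe sets passed in limma, with 6 apart upward and 4 downward (10 of 16, against 29.2% of all tested probe sets, 13.8% higher and 15.5% lower). Kat6a (Moz), a MYST family enzyme that acetylates H3, gave 1291, 1279 and 1148 with the mimics and 1594, 1625 and 1752 with the control siRNA. The groups were well apart (−0.42 ± 0.09 SE, limma adjusted p = 0.0849). Kat2b (Pcaf), a coactivator acetyltransferase of the SAGA and ATAC complexes, gave 5016, 4996 and 5012 with the mimics and 5980, 6280 and 6283 with the control siRNA (−0.30 ± 0.07 SE, limma adjusted p = 0.0921). Both were called lower with the level-dependent robust prior (limma adjusted p = 0.00373 for Kat6a and 0.0021 for Kat2b), also without each array in turn. The Kat2b probe set ends in _s_at, a suffix the maker gives to probe sets that can match more than 1 gene, and a dimmer Kat2b probe set was at −0.11 and did not pass.

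None of the relatives of these acetyltransferases passed with either prior. Kat2a (Gcn5), the paralog of Kat2b, gave 3674, 3744 and 3507 with the mimics and 3885, 3846 and 3949 with the control siRNA, apart by a narrow gap (−0.10, limma adjusted p = 0.484). On the brightest probe sets of the other MYST genes, Kat5 (Tip60) was at 0.18, Kat6b at 0.10, Kat7 (Hbo1) at −0.11 and Kat8 (Mof) at 0.02. Dimmer probe sets of Kat7 and Kat6b stood further from 0. For Kat7, 1447631_at gave 202, 136 and 158 with the mimics and 109, 106 and 97.3 with the control siRNA (0.65 ± 0.16 SE, limma adjusted p = 0.117, and 0.0522 with the level-dependent robust prior). For Kat6b, 1447758_x_at gave 46.6, 79.9 and 46.6 with the mimics and 24.8, 38.9 and 45.1 with the control siRNA (0.67 ± 0.32 SE, limma adjusted p = 0.332). The groups were apart on both, by a narrow gap for Kat6b. Kat14, a subunit of ATAC, was at 0.23 and 0.29 on its tested probe sets, with mimic values above control values on both and no call.

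The arginine methyltransferases were mostly above 0, without a call. Of 8 genes, 7 were above 0 on their brightest probe set, with a median of 0.15, and 13 of 16 tested probe sets were above 0, as were 14385 of all 29167 tested ones. None passed in limma, and 5 of the 16 had groups apart, all upward, against 13.8% of all tested probe sets. The 13 became 11 to 14 with other scalings and 10 to 13 without 1 array, lowest without control replicate 1. Prmt1, the main source of asymmetric dimethylarginine, gave 14262, 16733 and 13914 with the mimics and 10644, 13054 and 8392 with the control siRNA. The groups did not overlap, but the control arrays spread widely (0.50 ± 0.19 SE, limma adjusted p = 0.226). Prmt5, which makes symmetric dimethylarginine, gave 3460, 3934 and 3298 with the mimics and 3018, 3022 and 2733 with the control siRNA (0.28 ± 0.10 SE, limma adjusted p = 0.209). Its probe set also carries the _s_at suffix.

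Prmt8, a membrane-bound relative of Prmt1 known from neurons, had the largest upward fold change of its family. It gave 275, 231 and 221 with the mimics and 161, 156 and 104 with the control siRNA, groups that were apart (0.81 ± 0.21 SE, limma adjusted p = 0.122). Prmt5 and Prmt8 were called higher with the level-dependent robust prior (limma adjusted p = 0.0272 and 0.0192). The Prmt8 call ended without control replicate 3 or mimic replicate 1, and the Prmt5 call without control replicate 1, control replicate 3, mimic replicate 1 or mimic replicate 2 (up to 0.0854 and 0.11). On their brightest probe sets Prmt2 was at 0.17, Prmt3 at 0.13, Prmt6 at 0.06, Prmt7 at 0.07 and Prmt9 at −0.0029. Dim second probe sets of Prmt6 and Prmt9, at −0.82 and −0.56, were the other members of the family below 0, with groups that overlapped (limma adjusted p = 0.271 and 0.374).

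**Figure D3:**
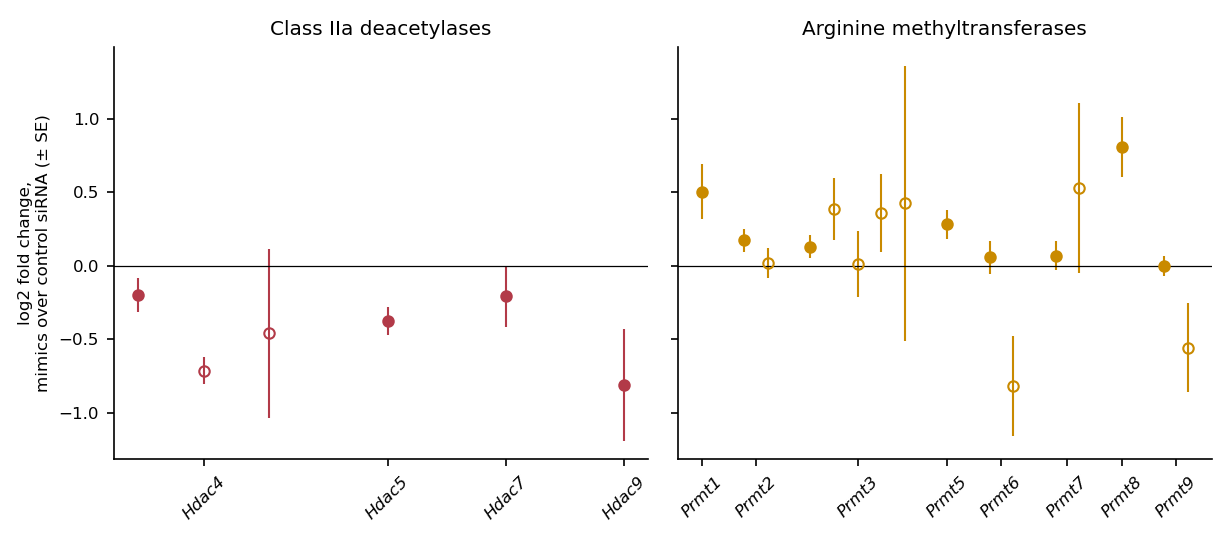
Log2 fold change with its SE (y axis, mimics over control siRNA, log2 units) of every tested probe set of the class IIa deacetylase genes (left) and the arginine methyltransferase genes (right), grouped by gene. Filled points are the brightest probe set of a gene and open points the others. All 6 on the left are below 0, and 13 of 16 on the right are above it.

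**Figure D4:**
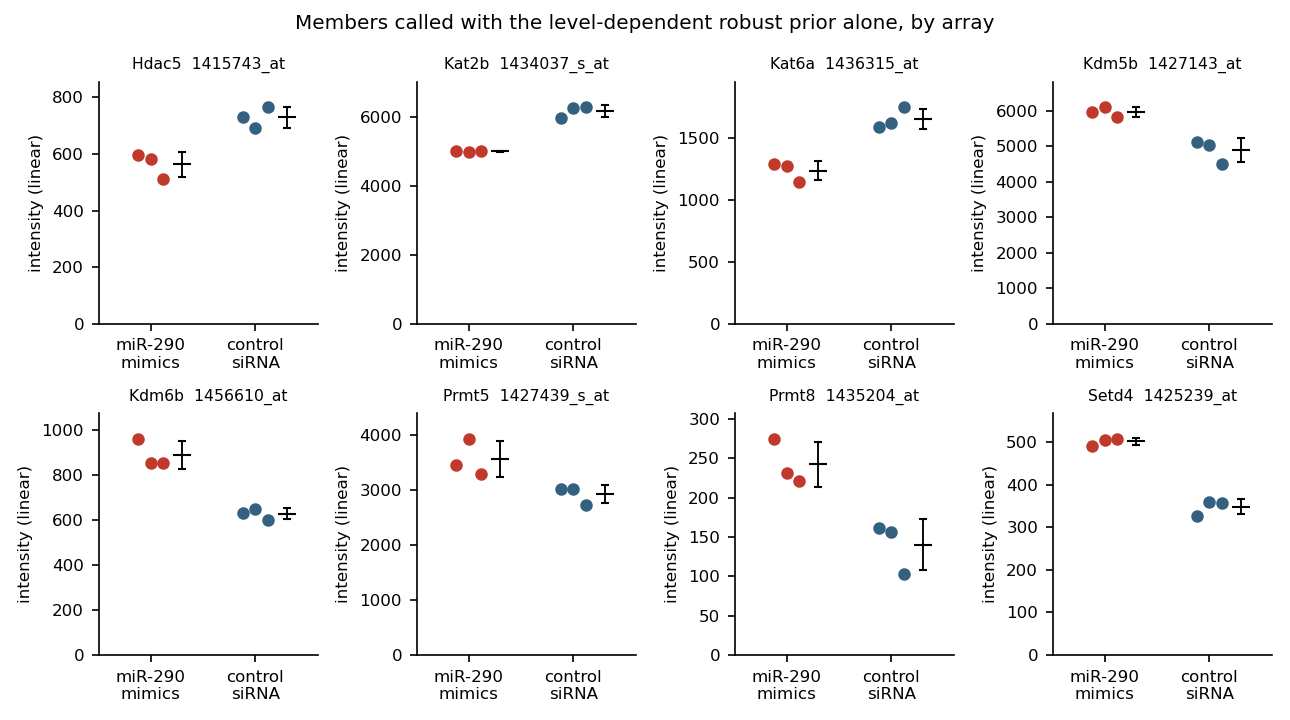
Linear intensity (y axis, starting at 0) on each array for the 8 member probe sets called with the level-dependent robust prior alone, of genes other than Kmt2e, mimics in red and control siRNA in blue. Points are arrays in replicate order, and bars are the group mean with its SD (n = 3). The groups do not overlap in any panel, with Hdac5, Kat2b and Kat6a lower and Kdm5b, Kdm6b, Prmt5, Prmt8 and Setd4 higher with the mimics.

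Probe sets of 1 gene often disagreed. Of 35 members with several tested probe sets, 22 (62.9%) had all of them on the same side of 0, against 52.0% of all 6372 such genes, and their median range was 0.29 on the log2 scale, against 0.32. The 26 member probe sets under the filter belonged to 18 genes. They did not exceed 46.2 on any array. No detection calls were at hand to separate such signal from background, nor for tested members as dim, such as Kdm4d and Hdac9.

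Proteins that work with these enzymes, and related enzymes outside the naming rule, were followed in 4 lists, of 125 genes in all. Of these, 118 were tested through their brightest probe set, 48 of them in the list of related enzymes. None was called in limma, 0 of 118, although 39 (33.1%) had an unadjusted p under 0.05, against 24.5% of all genes. The level-dependent robust prior called 21 lower and 9 higher, 25.4% of the lists, against 15.6% of all 13815 genes (9.43% lower and 6.20% higher). Most list genes were brighter than the median of all tested genes, a log2 level of 8.53. The part of signal level in these shares was not tested. The median of the lists was −0.05, and all tested genes had a median of −0.01. The genes named from here with that prior were chosen after their values were seen.

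Partners of the deacetylases included 5 lower and 1 higher of 20 tested with the level-dependent robust prior, and their median was −0.16. With it, 9.43% of all 13815 genes were called lower and 6.20% higher. The 5 were the CoREST subunits Rcor1 (−0.50) and Rcor3 (−0.65), the Sin3 complex members Arid4b (−0.36) and Sin3b (−0.23), and the NuRD gene Mta3 (−0.30), and the higher 1 was Mbd3 (0.31), another NuRD gene. A second Rcor3 probe set, which is not its brightest, passed in limma: it gave 93.0, 106 and 93.1 with the mimics and 205, 203 and 161 with the control siRNA (−0.95 ± 0.13 SE, limma adjusted p = 0.0478). All 3 mimic values were below the lowest control value. Dimmer Arid4b probe sets lay between −0.27 and 0.27, without a call. The brightest of this list, Sin3b, averaged 7604 ± 586 with the mimics and 8929 ± 425 with the control siRNA, and Sap30 averaged 7049 ± 231 with the mimics and 7177 ± 137 with the control siRNA (SD, n = 3 each; limma adjusted p = 0.24 and 0.863).

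Partners of the MLL and SET1 complexes gave 3 lower and 2 higher of 17 with the same prior, with a median of −0.01. The shares of all genes were 9.43% lower and 6.20% higher. The lower ones were Mllt1 (−0.92) and Mllt3 (−0.82), readers of acetylated histones in the super elongation complex, and the CpG-binding SET1 subunit Cxxc1 (−0.40). Mllt1 was dim, at 49.3, 62.2 and 53.6 with the mimics and 100, 92.3 and 121 with the control siRNA. Its other tested probe set was at 0.51, and dimmer Mllt3 probe sets were at −0.27 and −0.13, all without a call. A dimmer Cxxc1 probe set was at −0.05, also without a call. The higher ones were the shared core subunit Wdr5 (0.30) and Paxip1 (0.30). Dpy30 and Ash2l, the brightest core subunits, were at 0.17 and 0.13 (limma adjusted p = 0.319 and 0.461, no call).

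Partners of the acetyltransferases gave 5 lower and 5 higher of 33, with a median of 0.03, against 9.43% lower and 6.20% higher of all genes. Msl1 (−0.70) and Msl3 (−0.44), which work with Kat8, Brpf3 (−0.48) and Epc1 (−0.26), scaffolds of MYST complexes, and the SAGA adaptor Tada2b (−0.42) were lower. Sgf29 (0.44), Tada2a (0.33), Ruvbl2 (0.27), Dmap1 (0.27) and Kansl2 (0.18) were higher. Ruvbl2, the brightest of the list, averaged 8707 ± 530 with the mimics and 7222 ± 201 with the control siRNA (SD, n = 3 each, limma adjusted p = 0.154). Jade1, next in brightness, was at 0.03. Dimmer Jade1 probe sets were at 0.11, 0.02 and 0.39. The last of these was called higher with the level-dependent robust prior (limma adjusted p = 0.0318). So was a dimmer Ing3 probe set, at 1.09 (limma adjusted p = 0.00887 with that prior). The brightest Ing3 probe set was at 0.10, without a call. For Epc1, a dimmer probe set was at 0.38, also without a call.

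Related enzymes outside the naming rule gave 8 lower and 1 higher of 48, with a median of −0.10. Again, 9.43% of all genes were called lower and 6.20% higher. The lower ones were the deacylase Sirt7 (−0.71), Prdm16 (−0.82), the H3K36 methyltransferase Nsd3 (−0.40), and the coactivators Ncoa1 (−0.30) and Ncoa2 (−0.35). Lower as well were the histone kinase Aurkb (−0.33), the arginine methyltransferase Carm1 (−0.29) and the lysine methyltransferase Smyd2 (−0.24). Prdm16 was dim, at 86.6, 129 and 89.2 with the mimics and 169, 208 and 156 with the control siRNA. Its other tested probe sets were at −0.27, −0.46 and 0.20, without a call. The higher 1 was Wdr77 (0.22), the cofactor of Prmt5, which averaged 7727 ± 118 with the mimics and 6651 ± 54.1 with the control siRNA (SD, n = 3 each; limma adjusted p = 0.155). Hat1, the brightest of the list, averaged 10974 ± 469 with the mimics and 10045 ± 62.8 with the control siRNA (limma adjusted p = 0.384). A dimmer Smyd5 probe set, at 0.61, was called higher with the level-dependent robust prior (limma adjusted p = 0.00693). The brightest Smyd5 probe set, at 0.20, was not called.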

How the data were processed

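Affymetrix arrays were hybridised with biotinylated cRNA from total RNA of the 6 samples, per the labels. The authors deposited 1 linear intensity for each probe set on each array. GCRMA is named in the submitters' processing notes and usually returns log2 values, but the deposited intensities have a mean without the lowest and highest 2% of 500.0 on every array, which a global scaling gives. Which method made them, the background correction and any detection calls are not given in the sources used here, so low signal is not separable from background. The number of arrays limits the precision.

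The intensities were log2-transformed with no offset and not normalized again. Control probe sets (64) and 15870 probe sets with a mean log2 under 4 were left out. The 29167 others were fitted with limma 3.58.1 in R 4.3.3 (a constant prior variance in eBayes, 2-sided, no covariates), with Benjamini-Hochberg adjustment over all of them and a threshold of 0.05. The fit was also run on simulated data as a check of the code, which does not show how firm the calls here are. Folds are 2 to the power of the log2 difference, and means and SDs are of linear intensities. The brightest probe set (highest mean log2) stood for a gene in counts of genes.

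Genes were named from the platform annotation. Of the probe sets, 34945 had 1 symbol, 932 had several and 9160 were not listed there, so are unnamed here. All 58 member symbols are in RefSeq GRCm38.p6. No build is named for the array, so gene coordinates are not given.

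The members, the lists (COMPASS subunits and MLL partners, HDAC corepressor partners, acetyltransferase complex partners, related enzymes, stem cell and fibroblast markers), the classes and the tests were chosen with earlier results of these data known. All members could be named. Values on every array were to be given for members with a probe set past the threshold and, per family, for the 2 with the largest change among those whose groups do not overlap. For each list, the called genes or else the 2 brightest were named, and values given beyond this were chosen after they were seen. Replicate numbers were not used to pair the samples in the main fit. Same-numbered samples' deviations from their group means correlated at −0.01 to 0.02. This shows no strong shared shift by replicate number, but cannot settle whether the samples were paired.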

Additional observations from a re-analysis of the deposited data

How the results depend on the processing

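Counts are given lower first, then higher. With the level-dependent robust prior they were 1914 and 1379 over all tested probe sets, 8 and 5 over member probe sets, 5 and 5 over member genes and 21 and 9 over the partner and related enzyme lists. Median centring gave 103 and 50, then 0 and 0 for members and lists, and centring over all probe sets, chosen after seeing the data, 170 and 37, then 0 throughout. Quantile normalization left 0 lower and 1 higher member probe set and gene (Setd4). An offset of 16 gave 442 and 186 on the array, 4 and 1 member probe sets, 1 and 1 genes, and 4 and 0 in the lists. With no filter 0 probe sets were called. Filters at a mean log2 of 6 and of 8 gave 1522 and 851, and 1800 and 1200, on the array, 7 and 4, and 7 and 5, member probe sets, 4 and 3, and 6 and 5, member genes, and 14 and 3, and 21 and 10, list genes. Averaging the probe sets of each gene called 1 member gene lower, Kmt2e in place of Setd7, and 2 and 1 in the lists (Msl1 and Sirt7 lower, Sgf29 higher).

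The replicate block gave 0 calls, and together with the level-dependent robust prior, chosen after seeing the data, 2030 and 1528 on the array, 8 and 7 member probe sets, 5 and 7 member genes, and 23 and 9 in the lists. Without 1 array at a time, the counts were 0 to 0 lower and 0 to 1 higher on the array and 0 in members and lists. With the level-dependent robust prior as well they were 1186 to 1600 and 730 to 1244 on the array, 5 to 10 and 3 to 7 member probe sets, 3 to 7 and 3 to 7 member genes, and 11 to 18 and 5 to 9 list genes. Kdm1a changed sign with median centring, to 0.0068. Of the 124 member probe sets, 40 changed sign without at least 1 array, by the replicate left out 6 to 15 of them, and 12 of these 40 also with another scaling or the offset. None of the 40 had been called with either prior. They include further probe sets of Hdac4 (−0.94 to 0.16 without 1 array), Kdm6b (−0.19 to 0.10 and −0.09 to 0.34), Setd4 (−0.04 to 0.15) and Kat2b (−0.20 to 0.0066). The causes of these changes were not tested. Detection calls were not analysed here, so the level at which signal ends is not known.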

Other observations

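A probe set that carries the symbols Kdm6b and 1700064E03Rik together was not counted as a member. It gave intensities of 2660, 1795 and 1909 with the mimics and 1952, 1736 and 1811 with the control siRNA, and did not pass (log2 fold change 0.19, limma adjusted p = 0.584). It was brighter than the Kdm6b probe set called higher with the level-dependent robust prior, and its groups overlapped.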
